A study of Mus musculus with 9 samples.

Results

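The WAVE complex and its nearest actin regulators were followed as 10 genes, chosen by their symbols: *Cyfip1*, *Cyfip2*, *Nckap1*, *Wasf1*, *Wasf3*, *Abi1*, *Abi2*, *Rac1*, *Cttn* and *Cfl1*. All 10 were found among the 15464 genes of the table, and all 10 passed the filter on low values that left 14239 genes for testing. The striatum came from male mice of the *Shank3B* line on a C57BL/6J background, aged 10 to 12 weeks, in which exons in the middle of *Shank3* are targeted on no allele (WT), on 1 allele (HET) or on both (KO). The WT, HET and KO mice were littermates, each genotype had 3 mice, and each mouse gave 1 poly(A) RNA library. Values are the authors' normalized counts, which are estimated reads divided by a size factor for each library, and their sum lay between 30830020 and 33790296 per library.

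The WAVE complex turns on branched actin assembly. One CYFIP protein and one NCKAP protein form its larger part, which holds the WAVE protein, an ABI protein and BRK1 in an inactive state until Rac1 in its GTP form binds CYFIP, and the freed end of WAVE then activates the Arp2/3 complex. Cortactin steadies the resulting branches, and cofilin severs older filaments. In dendritic spines this machinery shapes the actin network on which the postsynaptic density rests, and Shank proteins bind cortactin directly.

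HET replicate 3 and KO replicate 3 stood apart from the rest. The first principal component of the 14239 genes held 33.6% of the variance, with scores of 33.8 for HET replicate 3 and 34.2 for KO replicate 3, while the other 7 libraries lay between −17.0 and 1.36. For 35.6% of all genes tested, both of these libraries lay on the same side outside the range of the other 7. Values without them are given where they differ most.

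Total *Shank3* was not lower in KO, and in HET its direction depended on WT replicate 3. The WT libraries had 7209, 8812 and 6043 normalized counts, the HET libraries 7575, 7098 and 8050, and the KO libraries 10237, 10798 and 10578. All KO libraries lay above all others, with a log2FC of 0.54 against WT (standard error 0.13, adjusted p = 0.999 in limma with Benjamini-Hochberg adjustment over all genes). The log2FC of HET against WT was 0.06, and −0.08 without WT replicate 3. The gene-level sum includes exons outside the targeted ones, so that it does not check the genotype labels. Markers of the tissue were present, since all 12 markers of medium spiny neurons, the principal neurons of the striatum, passed the filter, and adenylyl cyclase 5 (*Adcy5*) was the most abundant of them with a mean of 32205 normalized counts. Passing the filter does not set the striatum apart. All 8 markers of cortical glutamatergic neurons passed too, and *Slc17a7* among them had a mean of 34116.

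The members differed widely in level. Divided by the length of all their exons, *Cfl1* was the most abundant, with 8079 ± 444 normalized counts per kilobase (SD, n = 9 libraries of all genotypes), and *Cyfip1* the least, with 229 ± 24.9. *Cyfip2* (4722 ± 482) and *Nckap1* (4009 ± 455) followed *Cfl1*, then *Wasf1* (2566 ± 420) and *Rac1* (2009 ± 278). The remaining members were *Cttn* (924 ± 30.2), *Abi1* (849 ± 71.7), *Abi2* (669 ± 64.2) and *Wasf3* (624 ± 26.2). *Cfl1* lay above 99.4% of the genes tested on this scale and *Cyfip1* above 59.5%. Neighbours in this order overlapped in range for *Cyfip2* and *Nckap1*, *Wasf1* and *Rac1*, *Cttn* and *Abi1*, *Abi1* and *Abi2*, and *Abi2* and *Wasf3*. *Cttn* was above *Abi1* in 7 of 9 libraries and *Abi2* above *Wasf3* in 7 of 9, while the other neighbours kept their order in 9 of 9. The order of the means over all 9 libraries was the same when the longest transcript was used as the length. On that length *Abi2* was above *Abi1* in WT, with means of 1086 and 1059. It was below *Abi1* in HET (936 and 986) and in KO (950 and 974), so the order of these genes depends on the length. *Cfl1* has processed pseudogenes with nearly the same sequence, so its value depends on how shared reads were assigned.

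Most relatives of the members were far less abundant. *Wasf2*, the widely expressed WAVE gene, had a mean of 139 normalized counts per kilobase over the 9 libraries. *Nckap1l*, *Abi3*, *Rac2* and the cortactin relative *Hcls1*, genes known from blood and microglial cells, had 86.9, 37.4, 29.7 and 56.5. *Brk1*, the smallest subunit, had 3634, near the level of *Nckap1*. *Rac3* had 373, the muscle cofilin gene *Cfl2* had 465 and *Dstn*, which encodes destrin, a close relative of cofilin, had 2118.

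**Figure D1:**
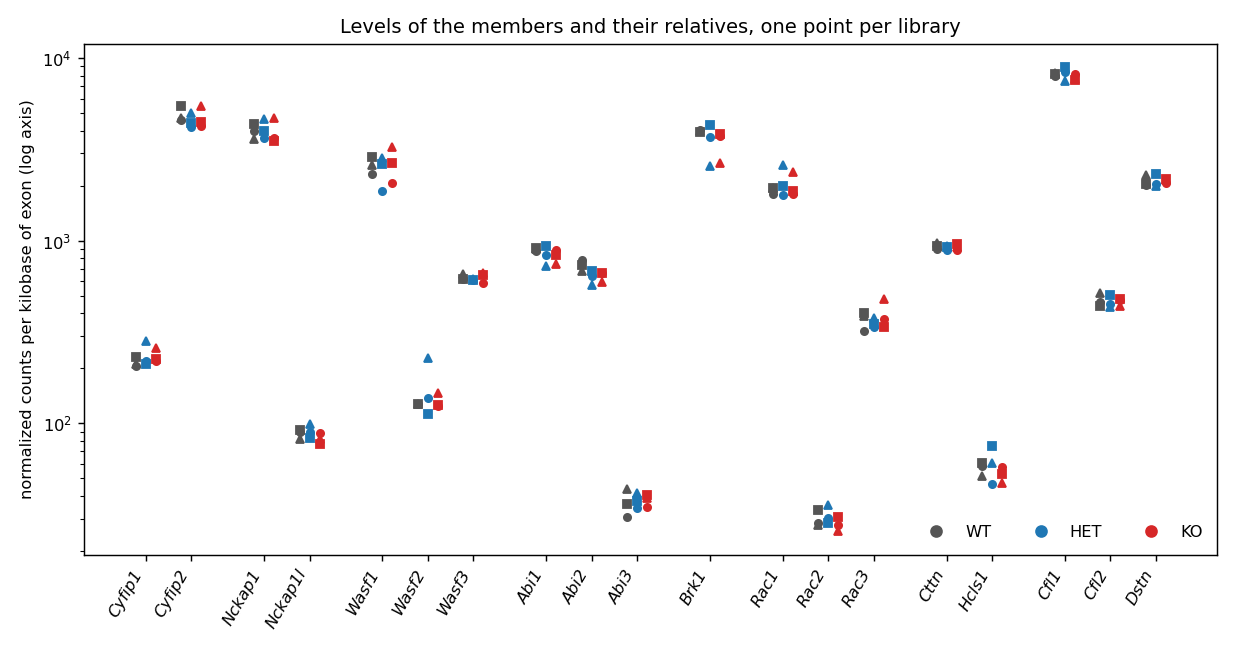
Normalized counts per kilobase of exon (vertical log axis) of the 10 members and 9 relatives (horizontal axis), 1 point per library, colored by genotype with circles, squares and triangles for replicates 1, 2 and 3. *Cfl1* is highest at a mean of 8079, and on this length *Cyfip2* lies at 17.9 to 23.7 times the level of *Cyfip1*. That multiple depends on the length used. In WT the means of *Cyfip2* and *Cyfip1* are 4902 and 215 with all exons, and 5229 and 399 with the longest transcript.

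The question put to the data was whether loss of 1 or both intact *Shank3* alleles came with other transcript levels of this machinery. None of the 10 members passed an adjusted p of 0.05 in limma with Benjamini-Hochberg adjustment over all genes, in KO against WT, in HET against WT or in KO against HET. In the same 3 comparisons 0% of all genes tested passed. At an unadjusted p under 0.05, 0 of 10 members passed in each comparison, where the share of all genes was 0.822% in KO, 1.11% in HET and 1.31% between KO and HET. These shares lie below the 0.05 that calibrated tests would give on average if nothing differed. The tests thus appear conservative here, and 0 of 10 does not show that the members were unchanged. Leaving out WT replicate 3, HET replicate 2 or KO replicate 3 brought 1 member, *Abi2*, past that unadjusted threshold in HET, and with the replicate number as a block *Abi2* passed it in both KO and HET. That block also groups the WT libraries by number, although no pairing of WT with a mutant genotype was taken. The median log2FC of the members, on the log2(normalized count + 1) scale, was −0.02 in KO and −0.03 in HET, against 0.0047 and −0.0027 over all genes tested. A log2FC above 0 was found for 4 of 10 members in KO and 4 of 10 in HET, where 51.6% and 49.3% of all genes were above 0 and 48.4% and 50.7% below. These counts rest on single libraries, since 1 of 10 was above 0 in KO without KO replicate 3 and 7 of 10 without KO replicate 1, and 1 of 10 was above 0 in HET without HET replicate 3. Without HET replicate 3 and KO replicate 3, the count was 1 of 10 in each and the medians −0.05 and −0.04. Both comparisons share the WT libraries. In bulk tissue, fewer cells of a type and less RNA per cell cannot be told apart.

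**Figure D2:**
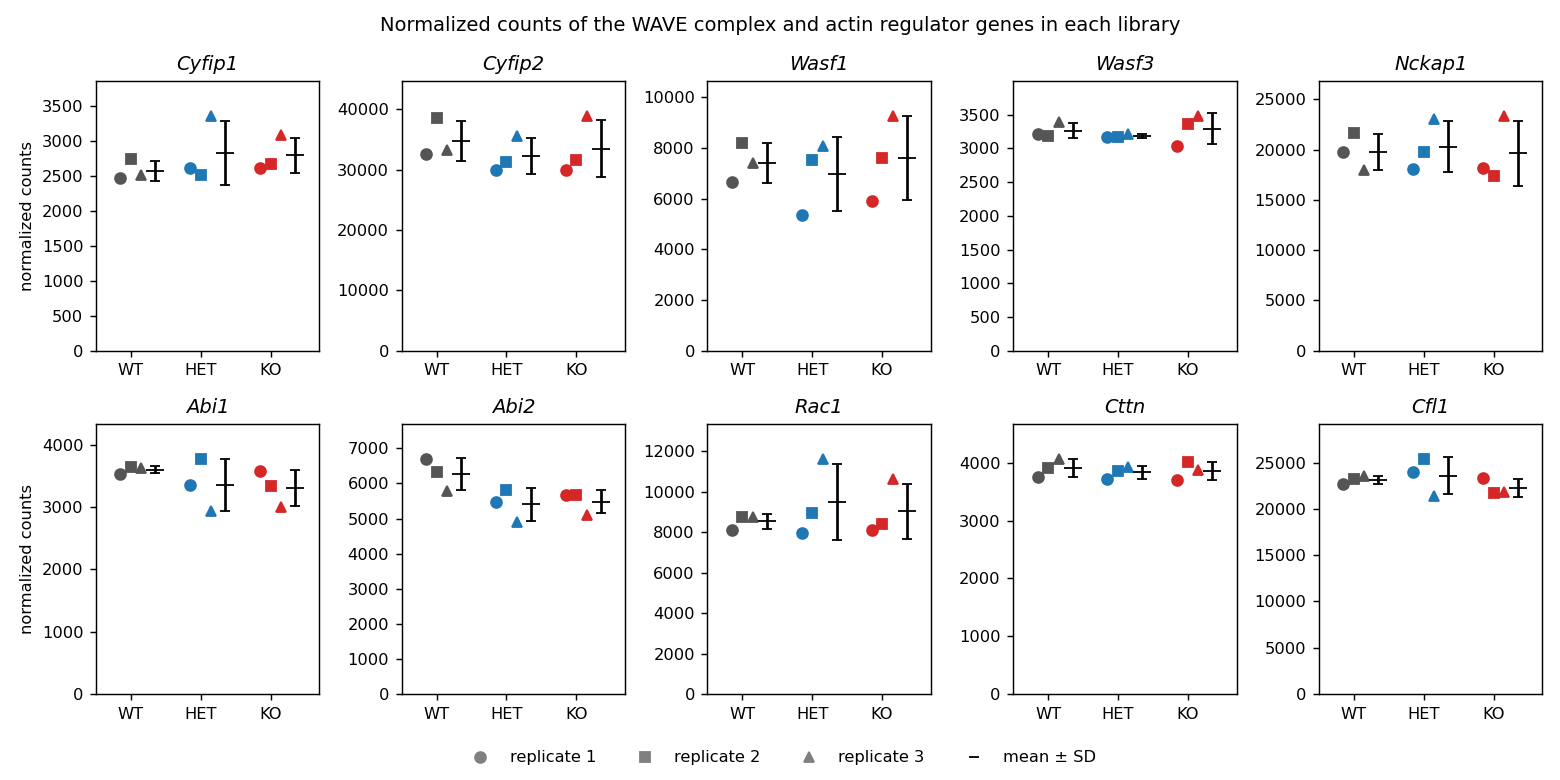
Normalized counts (vertical axis, starting at 0) of each member in WT, HET and KO, with 1 point per library, circles, squares and triangles for replicates 1, 2 and 3, and the mean ± SD of 3 mice beside them. The KO points of *Abi2* all lie below its WT points, and the triangles of HET and KO are high for *Cyfip1*, *Nckap1* and *Rac1* and low for *Abi1* and *Abi2*.

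*Abi1* and *Abi2* encode the ABI subunits of the complex, which tie WAVE to the CYFIP and NCKAP subunits. *Abi2* (ENSMUSG00000026782, chromosome 1 of GRCm38, 60409619 to 60481158, plus strand) had 6685, 6316 and 5793 normalized counts in WT, 5481, 5811 and 4908 in HET, and 5675, 5662 and 5100 in KO. Every KO library lay below the lowest WT library, while HET replicate 2 lay just above WT replicate 3. Non-overlapping groups were found for 1 of 10 members in KO against WT, where 4.54% of all genes did not overlap and 2.51% lay lower in KO without overlap, and for 0 of 10 in HET, where the share was 4.45%. The log2FC of *Abi2* was −0.19 in KO (95% confidence interval −0.41 to 0.03, adjusted p = 0.999 in limma with Benjamini-Hochberg adjustment) and −0.22 in HET (−0.43 to 0.0035, adjusted p = 0.999). Exact two-sided permutation tests over the mice gave p = 0.1 in KO, the smallest p that 3 against 3 allow, and p = 0.2 in HET. Leaving out each library in turn kept the log2FC between −0.25 and −0.14 for KO and between −0.27 and −0.15 in HET, and without HET replicate 3 and KO replicate 3 it was −0.14 and −0.15.

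*Abi1* (ENSMUSG00000058835, chromosome 2, 22940073 to 23040241, minus strand) had 3536, 3651 and 3629 normalized counts in WT, 3365, 3769 and 2936 in HET, and 3586, 3342 and 3012 in KO. The 3 WT libraries lay close together, HET replicate 3 and KO replicate 3 were lowest, and the groups overlapped. The log2FC was −0.13 in KO (−0.36 to 0.11) and −0.11 in HET (−0.35 to 0.13), and −0.06 and −0.02 without HET replicate 3 and KO replicate 3. *Brk1*, which sits beside ABI and WAVE in the complex, had log2FC values of −0.24 in KO and −0.21 in HET. Its KO libraries, with 4118, 4180 and 2918 normalized counts, all lay below the WT libraries, with 4402, 4308 and 4358. Among the 118 other pathway genes tested, 5 did not overlap in KO against WT, a share of 4.24% where that of all genes was 4.54%. Without HET replicate 3 and KO replicate 3, the log2FC of *Brk1* was −0.07 in KO and −0.00015 in HET.

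*Cyfip1* and *Cyfip2* encode the subunits that bind Rac1, and the CYFIP1 protein also joins FMRP in holding back translation. *Cyfip1* (ENSMUSG00000030447, chromosome 7, 55841745 to 55932602, plus strand) had 2463, 2737 and 2509 normalized counts in WT, 2615, 2514 and 3352 in HET, and 2615, 2673 and 3083 in KO. Only HET replicate 3 and KO replicate 3 lay above the WT range. The log2FC was 0.12 in KO (−0.15 to 0.39) and 0.13 in HET (−0.14 to 0.40), and 0.04 and −0.0014 without HET replicate 3 and KO replicate 3.

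*Cyfip2* (ENSMUSG00000020340, chromosome 11, 46193850 to 46312859, minus strand) had 32584, 38634 and 33240 normalized counts in WT, 29928, 31295 and 35636 in HET, and 30025, 31663 and 38885 in KO. In each mutant genotype, replicates 1 and 2 lay below all WT libraries and replicate 3 did not. The log2FC was −0.06 in KO (−0.37 to 0.25) and −0.11 in HET (−0.42 to 0.20), and −0.17 and −0.18 without HET replicate 3 and KO replicate 3.

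The ratio of *Cyfip2* to *Cyfip1*, formed per kilobase of all exons within each library, does not depend on the size factor. Its level, like that of the other ratios here, does depend on the lengths used for the genes. It was 22.2, 23.7 and 22.3 in WT, 19.2, 20.9 and 17.9 in HET, and 19.3, 19.9 and 21.2 in KO. Both mutant genotypes lay below all 3 WT libraries, including HET replicate 3 and KO replicate 3. The mean was 22.8 ± 0.85 (SD, n = 3) in WT, 19.4 ± 1.53 in HET and 20.1 ± 0.97 in KO, with p = 0.1 for each mutant in exact two-sided permutation tests. Among 11 such ratios between relatives and subunits, formed after the members' values were seen and tested in both genotypes, these were the only exact permutation tests of 22 that reached p = 0.1, and their adjusted p was 0.8 (Benjamini-Hochberg). For *Abi2* to *Abi1* the ratio was 0.82 ± 0.07 in WT, 0.76 ± 0.03 in HET and 0.78 ± 0.03 in KO, and for *Wasf1* to *Wasf3* it was 4.14 ± 0.48, 3.99 ± 0.80 and 4.17 ± 0.65 (SD, n = 3 each). The exact two-sided permutation p was 0.3 or higher for these ratios.

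*Nckap1* (ENSMUSG00000027002, chromosome 2, 80500512 to 80581380, minus strand), whose protein pairs with CYFIP, had 19737, 21622 and 17954 normalized counts in WT, 18033, 19813 and 23010 in HET, and 18178, 17421 and 23332 in KO. HET replicate 3 and KO replicate 3 were the highest of the 9 libraries, and the others overlapped. The log2FC was −0.02 in KO (−0.34 to 0.30) and 0.03 in HET (−0.29 to 0.35). Without those libraries it was −0.15 and −0.06.

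*Wasf1* and *Wasf3* encode the neuronal WAVE proteins that activate Arp2/3. *Wasf1* (ENSMUSG00000019831, chromosome 10, 40883475 to 40938570, plus strand) had 6638, 8204 and 7391 normalized counts in WT, 5335, 7525 and 8058 in HET, and 5924, 7594 and 9249 in KO. It was the most variable member, with a coefficient of variation of 10.6% in WT, 20.7% in HET and 21.9% in KO, and replicate 1 of each mutant genotype was below all WT libraries. Its log2FC was 0.02 in KO (−0.40 to 0.44) and −0.11 in HET (−0.53 to 0.32), the widest intervals among the members, and −0.14 and −0.22 without HET replicate 3 and KO replicate 3. *Wasf3* (ENSMUSG00000029636, chromosome 5, 146384985 to 146473615, plus strand) was steadier, with 3208, 3189 and 3391 in WT, 3162, 3169 and 3215 in HET, and 3038, 3355 and 3476 in KO. Its log2FC was 0.01 in KO (−0.17 to 0.19) and −0.04 in HET (−0.22 to 0.15), and −0.03 and −0.04 without HET replicate 3 and KO replicate 3.

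*Rac1* (ENSMUSG00000001847, chromosome 5, 143503634 to 143528036, minus strand), the switch that opens the complex, had 8131, 8750 and 8743 normalized counts in WT, 7975, 8954 and 11607 in HET, and 8128, 8394 and 10617 in KO. As for *Nckap1*, HET replicate 3 and KO replicate 3 were the highest libraries. The log2FC was 0.07 in KO (−0.26 to 0.41) and 0.14 in HET (−0.19 to 0.47). Without those libraries it was −0.05 and −0.01, in the opposite direction.

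The branch-stabilizing gene *Cttn* (ENSMUSG00000031078, chromosome 7, 144435733 to 144471009, minus strand) varied least over the 9 libraries together, with a coefficient of variation of 3.27%, although *Abi1*, *Cfl1* and *Wasf3* varied less within WT and *Wasf3* within HET. Its libraries had 3759, 3912 and 4063 normalized counts in WT, 3717, 3864 and 3933 in HET, and 3701, 4013 and 3887 in KO. The groups overlapped almost fully. Its log2FC was −0.02 in KO (−0.19 to 0.16) and −0.03 in HET (−0.20 to 0.15), so that its intervals cover −12.4% to 11.5% for KO and −13.0% to 10.7% for HET.

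*Cfl1* (ENSMUSG00000056201, chromosome 19, 5490455 to 5495201, plus strand), the filament-severing member, had 22648, 23171 and 23522 normalized counts in WT, 23934, 25335 and 21384 in HET, and 23364, 21668 and 21771 in KO. HET replicates 1 and 2 lay above the narrow WT range and HET replicate 3 below it, while KO replicate 1 lay within it and KO replicates 2 and 3 below. The log2FC was −0.05 in KO (−0.28 to 0.17) and 0.02 in HET (−0.20 to 0.25). Without HET replicate 3 and KO replicate 3 these were −0.04 and 0.09, and quantile normalization turned the sign of the HET value, to −0.04.

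**Figure D3:**
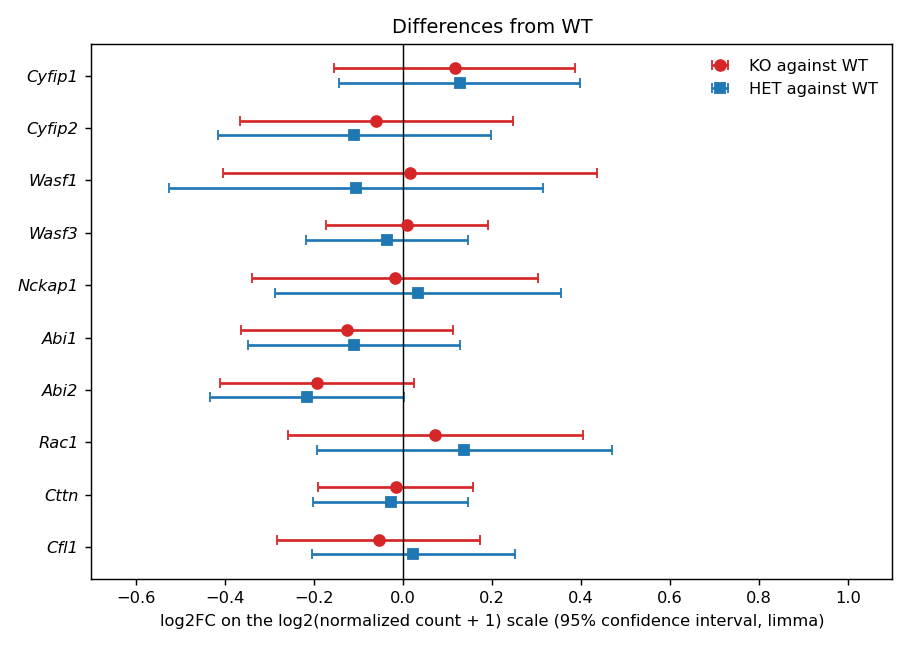
The log2FC of each member (vertical axis) against WT on the log2(normalized count + 1) scale (horizontal axis), with KO as circles and HET as squares and bars for the 95% confidence interval from limma over 9 libraries. Every interval includes 0, and those of *Abi2* come closest to leaving it, with upper ends of 0.03 in KO and 0.0035 in HET.

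Between KO and HET, the members' log2FC ran from −0.08 for *Cfl1* to 0.12 for *Wasf1*, with a median of −0.0001 against −0.00099 over all genes. Of the members 5 of 10 were above 0 and 5 below, where the shares of all genes were 49.6% and 50.4%, and without HET replicate 3 the count above 0 was 7 of 10 and without HET replicate 1 it was 2 of 10. Same-numbered HET and KO libraries deviated together from their genotype means. With the replicate number as a block, 0 of 10 members had an unadjusted p under 0.05 here, while the number of all genes that did was 318 in place of 186. No member's groups failed to overlap in this comparison, where 4.45% of all genes did not overlap. The adjusted p was 1.00 for every member (limma, Benjamini-Hochberg).

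In the libraries that stood apart, the members of the complex lay on different sides. Both HET replicate 3 and KO replicate 3 were above the range of the other 7 libraries for *Cyfip1*, *Nckap1* and *Rac1*, and below it for *Abi1* and *Abi2*. That made 5 of 10 members, where 19.2% of all genes lay above and 16.4% below in both. *Rac1* was 0.46 and 0.33 above the mean of the other libraries on the log2 scale in HET replicate 3 and KO replicate 3, and *Cyfip1* 0.37 and 0.25. *Abi1* was at −0.27 and −0.24, and *Abi2* at −0.27 and −0.21. *Wasf2* was also above and *Brk1* below the other 7 in both. The actin genes *Actb* and *Actg1* were above as well, with 61907 and 52822 normalized counts of *Actb* in HET replicate 3 and KO replicate 3 against 32273 to 40266 elsewhere. Reads of *Actb* and *Actg1* can be hard to separate, since their coding sequences are nearly alike. Whether the state of the tissue or of the RNA set these libraries apart was not tested.

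**Figure D4:**
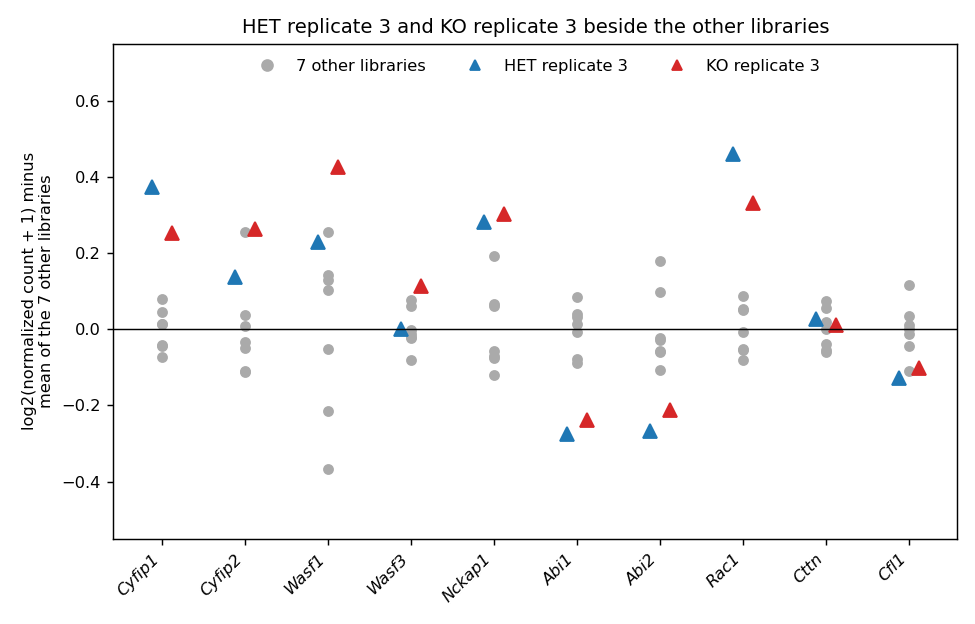
Difference of log2(normalized count + 1) from the mean of the 7 other libraries (vertical axis) for each member (horizontal axis), with HET replicate 3 and KO replicate 3 as triangles and the 7 others as grey circles. *Rac1*, *Cyfip1* and *Nckap1* are above all grey circles in both libraries, and *Abi1* and *Abi2* below them.

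Among the other 7 libraries, members were compared with each other in 45 pairs. The closest were *Wasf3* with *Cttn* (Pearson r = 0.88, exact permutation p = 0.00714, Spearman rank correlation = 0.89, exact permutation p = 0.0123) and *Wasf1* with *Rac1* (r = 0.84, exact permutation p = 0.0175, rank correlation = 0.82, exact permutation p = 0.0341). The adjusted p was 0.321 and 0.393 for r and 0.440 for both rank correlations, so neither passed over the 45 pairs. With the 2 libraries farthest from the median left out, r was 0.54 and 0.68.

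The gene most like a member over the 9 libraries, by Pearson r of the log2 values and given as a description, was *Pdcd6* for *Cyfip1* (0.99), *Med14* for *Cyfip2* (0.98), *Slc39a10* for *Nckap1* (0.98), *Atp6v0a1* for *Wasf1* (0.98) and *Rabgef1* for *Wasf3* (0.95). Further, it was *Scg5* for *Abi1* (0.98), *Vcp* for *Rac1* (0.99), *Lig1* for *Cttn* (0.95) and *Ssr4* for *Cfl1* (0.97). The number of genes this alike differed between members, with 835 of the 14238 other genes above 0.9 for *Rac1* and 570 for *Cyfip1*, which were both highest in HET replicate 3 and KO replicate 3, and 10 for *Cttn*. Over the 7 other libraries, the count was 315 for *Rac1*, 11 for *Cyfip1* and 138 for *Cttn*. There *Ssr4* was still the gene most like *Cfl1*, while every other member had a different nearest gene, such as *Naalad2* for *Cyfip1* (0.95).

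*Wasf1* and *Cyfip2* were the most abundant WAVE and CYFIP genes in these libraries, so their promoter sequences are shown. They come from RefSeq on GRCm38.p6 and run from 250 bases before to 50 after the start. The set of promoters used here covered 5 of the 10 members. Capitals mark the motifs searched on both strands, which were the GC box GGGCGG, the CCAAT box CCAAT, the TATA box TATAAA and the cAMP response core TGACG, and none of these overlap.
*Wasf1*, chr10:40883284-40883583, plus strand: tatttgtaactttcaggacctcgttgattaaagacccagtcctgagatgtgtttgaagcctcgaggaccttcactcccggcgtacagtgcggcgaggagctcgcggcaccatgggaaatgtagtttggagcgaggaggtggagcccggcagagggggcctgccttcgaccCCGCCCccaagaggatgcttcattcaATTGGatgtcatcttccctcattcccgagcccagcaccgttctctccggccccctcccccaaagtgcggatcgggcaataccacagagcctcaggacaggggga
*Cyfip2*, chr11:46312309-46312608, minus strand: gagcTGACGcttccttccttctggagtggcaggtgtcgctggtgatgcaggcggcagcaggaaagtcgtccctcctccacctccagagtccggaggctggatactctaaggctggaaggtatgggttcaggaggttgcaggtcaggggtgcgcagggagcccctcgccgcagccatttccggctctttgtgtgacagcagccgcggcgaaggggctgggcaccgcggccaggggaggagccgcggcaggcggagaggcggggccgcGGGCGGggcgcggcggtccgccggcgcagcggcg
The *Wasf1* promoter held 1 GC box and 1 CCAAT box, and that of *Cyfip2* 1 GC box and 1 cAMP response core. Across 32851 promoters of this length, 35.7% held a GC box, 37.4% a CCAAT box, 13.6% a TATA box and 20.8% a cAMP response core. Neither window held the TATA letters, and the G and C content was 59.0% for *Wasf1* and 70.7% for *Cyfip2*. These matches describe the letters and are not binding sites.

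The wider pathway was followed through 119 other genes in 11 lists, of which 118 were tested and 1, the cofilin phosphatase gene *Pdxp*, was not found in the table under its symbol. None passed the adjusted threshold. At an unadjusted p under 0.05, 0 of 118 passed in KO and 3 in HET, with 2 higher and 1 lower, where the shares of all genes were 0.604% higher and 0.506% lower. Between KO and HET it was 0 of 118. The count in HET was 0 without WT replicate 2 or without HET replicate 3 and 1 without WT replicate 1, that in KO was 4 without WT replicate 3, and without HET replicate 3 and KO replicate 3 the counts were 2 in KO, 1 in HET and 1 between KO and HET. The median log2FC of the 118 genes was −0.0062 in KO and 0.0026 in HET.

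**Figure D5:**
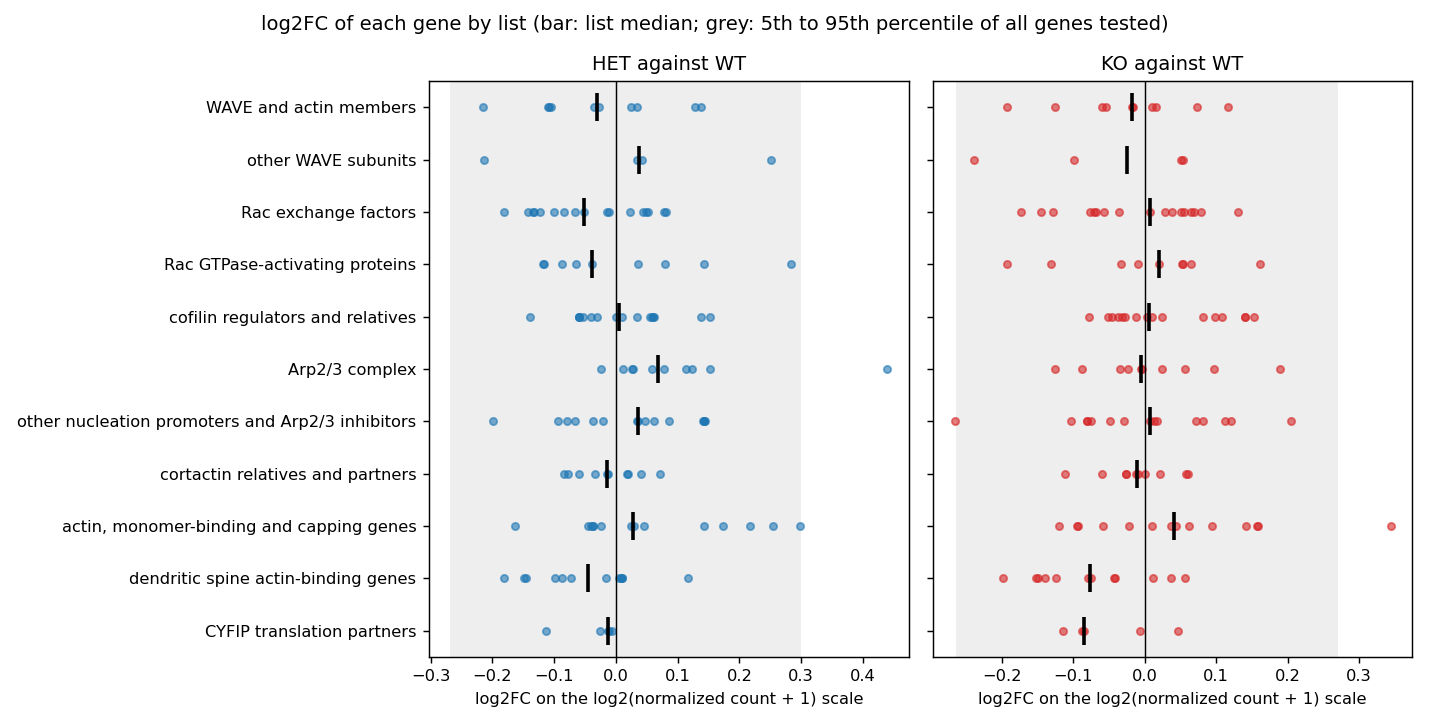
The log2FC of each gene (point) on the log2(normalized count + 1) scale (horizontal axis) in the members and 10 of the 11 other lists (vertical axis) for HET against WT and KO against WT, with the list median as a bar and a grey band from percentile 5 to 95 of all genes tested. Most points lie inside the band, which spans −0.27 to 0.30 for HET and −0.26 to 0.27 for KO, with *Arpc1b* and, at its edge, *Eps8* beyond it in HET and *Eps8* and *Gmfg* beyond it in KO.

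The 3 genes were *Rhog*, *Arpc1b* and *Wipf2*. *Rhog*, a GTPase that feeds into Rac through ELMO and DOCK proteins, had 658, 773 and 1004 normalized counts in WT, 857, 1149 and 1360 in HET, and 856, 1018 and 888 in KO. HET replicates 2 and 3 were above all WT libraries and HET replicate 1 was not. Its log2FC in HET was 0.46 (standard error 0.19, adjusted p = 0.999 in limma with Benjamini-Hochberg adjustment), and 0.31 without HET replicate 3 and KO replicate 3. *Arpc1b*, an Arp2/3 subunit known from blood cells, had 549, 456 and 601 in WT, 733, 553 and 928 in HET, and 546, 612 and 669 in KO. Its log2FC in HET was 0.44 (standard error 0.18, adjusted p = 0.999) with overlapping groups, and 0.26 without HET replicate 3 and KO replicate 3. *Wipf2*, a partner of N-WASP, was the steadiest of them, with 2768, 2901 and 3033 in WT, 2592, 2595 and 2392 in HET, and 2807, 2711 and 2892 in KO. All HET libraries lay below all WT and all KO libraries (in HET against WT 2 of 118 pathway genes did not overlap, against 4.45% of all genes), with a log2FC in HET of −0.20 (standard error 0.08, adjusted p = 0.999) and −0.16 without HET replicate 3 and KO replicate 3.

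Of the 10 Arp2/3 subunit genes, 9 had a log2FC above 0 in HET and 4 in KO, with medians of 0.07 and −0.0045, and 0 of 10 were above 0 between KO and HET, where the shares of all genes were 49.3%, 51.6% and 49.6%. Without HET replicate 3 it was 5 of 10 in HET and 5 of 10 between KO and HET, and when KO replicate 3 was also left out it was 5 in HET and 1 in each of the comparisons with KO. The count in KO against WT also moved the other way, to 8 of 10 without WT replicate 2 (median 0.03) and 7 of 10 without KO replicate 2 (median 0.04). *Arpc2* was the most abundant subunit, with a mean of 2795 normalized counts per kilobase. A log2FC below 0 was found for 9 of the 12 spine actin-binding genes in KO and for 7 in HET, with medians of −0.08 and −0.04, where 48.4% and 50.7% of all genes were below 0. Without WT replicate 2 it was 6 of 12 in both, with medians of −0.0071 and −0.0087, and without WT replicate 3 the median was −0.13 for KO and −0.16 for HET. *Ppp1r9b*, which encodes spinophilin, was the most abundant of them per kilobase (mean 5157), and its log2FC was −0.15 in KO and −0.07 for HET. The actin crosslinker gene *Actn2* gave −0.20 for KO and 0.12 for HET, while its WT libraries, with 2850, 3498 and 1749 normalized counts, spanned nearly the range of all 9.

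Genes that act on cofilin and Rac had list medians near 0. The 16 cofilin regulators and relatives had medians of 0.0067 in KO and 0.0051 in HET (−0.00036 and 0.02 without HET replicate 3 and KO replicate 3), and *Pak1*, the Rac effector kinase with the highest level among them (mean 2857 normalized counts per kilobase), had log2FC values of 0.02 and 0.03. The KO median of this list was 0.05 without WT replicate 3, and its HET median was −0.04 without HET replicate 2. The 17 Rac exchange factors had medians of 0.0070 and −0.05, the latter running from −0.10 without HET replicate 1 to 0.01 without HET replicate 2, with *Dock3* the most abundant per kilobase (mean 874) at −0.07 and −0.12. The 9 Rac GTPase-activating genes had medians of 0.02 and −0.04, and −0.04 and −0.09 without HET replicate 3 and KO replicate 3, while the HET median was 0.03 without HET replicate 1 and 0.04 without HET replicate 2. With HET replicate 3 and KO replicate 3 left out, 1 of 9 had a log2FC above 0 in KO and 0 of 9 in HET, so that the HET value of every gene in the list, *Chn1* included, was then below 0. *Chn1*, which encodes chimaerin, was their most abundant (mean 5597), with the highest log2FC of the list (0.16 in KO and 0.28 in HET), while *Bcr* was lowest in KO (−0.19). *Chn1* had 58809 and 50866 normalized counts in HET replicate 3 and KO replicate 3 against 26848 to 35168 elsewhere.

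In further lists the medians in KO and HET were −0.02 and 0.04 for the 4 other WAVE subunits, 0.0075 and 0.04 for 15 other nucleation promoters and Arp2/3 inhibitors, −0.01 and −0.01 for 10 cortactin relatives and partners, 0.04 and 0.03 for 14 actin, monomer-binding and capping genes, and −0.08 and −0.01 for 5 translation partners of CYFIP. Without HET replicate 3 and KO replicate 3, these medians were −0.05 and −0.03 for the other WAVE subunits, −0.05 and 0.02 for the nucleation promoters and inhibitors, 0.0050 and 0.0013 for the cortactin relatives, −0.05 and −0.03 for the actin and capping genes, and −0.01 and −0.0024 for the translation partners. The most abundant genes per kilobase in these lists were *Brk1*, *Wipf3*, the cortactin-like *Dbnl*, *Actg1* (mean 17399) and the FMRP relative *Fxr2*. *Eps8*, an actin-capping gene, had the largest log2FC among the pathway genes in KO (0.34, and 0.30 in HET), with 1636 and 1537 normalized counts in HET replicate 3 and KO replicate 3 against 608 to 781 elsewhere. Without those libraries the log2FC of *Eps8* was −0.05 in KO and −0.17 in HET. *Gmfg*, a debranching factor of blood cells at 19.3 to 38.3 normalized counts, differed from WT by −0.27 in KO and by 0.05 in HET on the log2 scale, and its KO value was −0.43 without WT replicate 1 and −0.09 without KO replicate 2.

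Markers of cell types varied between libraries beside these values. The 12 medium spiny neuron markers summed to 175325, 198364 and 100590 normalized counts in WT, 175585, 135118 and 168098 in HET, and 147336, 129026 and 97619 in KO. Of these markers, 11 of 12 had a log2FC below 0 in KO (median −0.26) and 4 of 12 in HET (median 0.07), and 0 of 12 passed an adjusted p of 0.05 in either. The 8 oligodendrocyte markers, led by *Mbp*, summed to 175664, 164926 and 272779 in WT, 233705, 262408 and 255122 in HET, and 231198, 254308 and 142693 in KO, and 8 of 8 had a log2FC above 0 in HET (median 0.35). The 8 microglia markers, led by *Csf1r*, summed to between 11870 and 13658 in all libraries. Astrocyte markers, led by *Slc1a2*, summed to between 132648 and 163828. Cortical glutamatergic markers, led by *Slc17a7*, ranged from 35564 to 57003, with log2FC below 0 in HET for 7 of 8. The 7 endothelial and pericyte markers found, led by *Rgs5*, ranged from 9330 to 11676, and 7 of 7 were above 0 in HET with a median of 0.12. Thalamic and septal markers, led by *Rora*, ranged from 4057 to 5723, and 1 of 8 had an unadjusted p under 0.05 in KO, 0 in HET and 2 between KO and HET, where the shares of all genes were 0.822%, 1.11% and 1.31%. The 3 blood markers found, led by *Hba-a2*, ranged from 1624 to 3926 in sum, and 3 of 3 were above 0 in HET (median 0.22) and 1 of 3 in KO (median −0.18). Their sum was highest in WT replicate 3, and a link to the value of *Arpc1b* in HET was not tested. Of the choroid plexus markers, led by *Enpp2* and ranging from 6048 to 8606 in sum, the defining gene *Ttr* was listed at 0 to 26.6. *Enpp2* alone had a mean of 7382, so that sum rests mainly on 1 gene and is no measure of choroid plexus. The part of these differences in the members' values was not tested.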

How the data were processed

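Per the labels and the study's methods, striatal RNA of 9 mice was made into stranded poly(A) libraries and sequenced by Illumina. The authors estimated transcript abundance with Salmon (0.9.1) on GRCm38 with GC bias correction, imported gene values with tximport and divided them by DESeq2 (1.19.11) size factors. The deposited signal is these normalized counts per gene, with 1 column per mouse and 0 columns unused. Low values are not whole multiples of 1 read, so the depth is unknown, no counting interval is given, and precision comes from the spread between mice.

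Symbols were found for 15457 of 15464 genes, and coordinates and exon lengths come from GENCODE M21 on GRCm38. Genes with at least 10 normalized counts in at least 3 libraries were fitted as log2(normalized count + 1) with limma 3.58.1 in R 4.3.3, with a trended variance prior, the genotype as the only factor and all 9 libraries together. p-values were adjusted by Benjamini-Hochberg over the 14239 genes, with a threshold of 0.05. Log2FC on this scale understates changes of low genes. Single values were compared with exact two-sided permutation tests (scipy 1.17.1), and figures were drawn with matplotlib 3.10.9.

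The members, gene lists and markers were chosen with earlier results of these data known. Genes were named by rule, as members, their relatives, *Shank3*, list genes with an unadjusted p under 0.05, the 3 largest log2FC per comparison, the most abundant gene of each list and the gene most like each member. Markers covered medium spiny neurons, choroid plexus, cortical, thalamic and septal neurons, oligodendrocytes, astrocytes, microglia, endothelial cells with pericytes, and blood. Same-numbered HET and KO libraries deviated together from their genotype means (r over genes of 0.515, 0.281 and 0.506), while those of WT with KO (0.243, −0.221 and 0.0244) or HET (0.319, −0.0142 and 0.00538) did so for replicate 1 only, and a pairing was taken where every r was over 0.1, which held for HET with KO. The nearest gene of *Abi2* and the values of 1 pathway list are not reported here. The sources do not say what the numbers stand for. Alternatives were other filters, pseudocounts, normalizations, variance priors, array weights, a replicate block, fits of 2 genotypes and leaving out libraries.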

Additional observations from a re-analysis of the deposited data

How the results depend on the processing

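No member passed an adjusted p of 0.05 under any alternative, and the numbers of members and of all genes past it stayed at 0 in each comparison. With 3 mice per genotype the widest 95% interval against WT, that of *Wasf1*, reached from −0.53 to 0.32 on the log2 scale in HET and that of *Cttn* from −0.20 to 0.15, so the difference that could be detected varied between members, and the unknown depth adds no bound. The median log2FC of the members ran from −0.053 to 0.024 in KO, −0.051 to 0.0031 in HET and −0.048 to 0.048 between KO and HET when each library was left out in turn. Genes at an unadjusted p under 0.05 then numbered 70 to 289 in KO, 116 to 393 in HET and 141 to 298 between KO and HET. With the replicate number as a block they were 310, 365 and 318, and the block changed no adjusted call, although *Abi2* then had an unadjusted p of 0.026 in KO and 0.016 in HET (limma). These p-values against WT group the WT libraries by number too, where no pairing with a mutant genotype was taken. In KO they were 76 with the filter at 50, 176 without a trend in the variance prior and 395 with array weights, and without HET replicate 3 and KO replicate 3 they were 217 in KO and 271 in HET.

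Of 630 member values under the alternatives, 54 changed sign, 39 of them on leaving out 1 library. By that, log2FC in KO ran from −0.17 to 0.018 for *Cyfip2*, −0.14 to 0.18 for *Wasf1*, −0.031 to 0.066 for *Wasf3*, −0.15 to 0.063 for *Nckap1*, −0.047 to 0.15 for *Rac1*, −0.045 to 0.015 for *Cttn*, −0.48 to 0.018 for *Actn2* and −0.053 to 0.56 for *Eps8*. In HET it ran from −0.0014 to 0.21 for *Cyfip1*, −0.22 to 0.077 for *Wasf1*, −0.061 to 0.12 for *Nckap1*, −0.015 to 0.26 for *Rac1*, −0.055 to 0.00085 for *Cttn*, −0.031 to 0.092 for *Cfl1*, −0.075 to 0.20 for *Shank3*, −0.17 to 0.33 for *Actn2*, −0.17 to 0.55 for *Eps8* and −0.12 to 0.19 for *Gmfg*. Between KO and HET it ran from −0.089 to 0.12 for *Cyfip1*, −0.062 to 0.12 for *Cyfip2*, −0.061 to 0.29 for *Wasf1*, −0.18 to 0.043 for *Nckap1*, −0.11 to 0.072 for *Abi1*, −0.044 to 0.077 for *Abi2*, −0.19 to 0.088 for *Rac1*, −0.017 to 0.042 for *Cttn*, −0.24 to 0.14 for *Brk1* and −0.35 to 0.51 for *Eps8*.

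Quantile normalization gave −0.0030 for *Wasf1* and −0.0032 for *Wasf3* in KO and −0.036 for *Cfl1* in HET. Array weights gave −0.11 for *Wasf1*, −0.0091 for *Wasf3* and −0.018 for *Rac1* in KO, −0.060 for *Nckap1*, −0.024 for *Shank3* and −0.079 for *Actn2* in HET, and 0.018 for *Cyfip1* between KO and HET. Without HET replicate 3 and KO replicate 3, values were −0.14 for *Wasf1*, −0.031 for *Wasf3*, −0.047 for *Rac1* and −0.053 for *Eps8* in KO, −0.0014 for *Cyfip1*, −0.061 for *Nckap1*, −0.015 for *Rac1*, −0.062 for *Actn2* and −0.17 for *Eps8* in HET, and 0.044 for *Cyfip1* between KO and HET. For these sign changes the cause was not tested.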
